A study of Mus musculus with 74 samples.

Results

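Cytochrome P450 genes were taken as every gene whose symbol is Cyp followed by a family number, a subfamily letter and a member number, which gave 69 genes of the 17853 listed in at least 1 of the 6 deposited count tables. Of these, 41 were listed in all 6 tables and 6 in only 1. The libraries came from mTEChi, mature epithelial cells of the thymic medulla, high in MHC class II, that were sorted from thymi of mice aged 4 to 7 weeks. The mice carried different forms of Aire, the gene of the autoimmune regulator. RNA was counted at its 3′ end by bulk MARS-seq, so a level is given in CPM, the count of a gene scaled to a common library total, and is not divided by transcript length.

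P450 enzymes are haem proteins of the endoplasmic reticulum or of mitochondria that use molecular oxygen and electrons from reductase partners to hydroxylate small molecules. Most drug-metabolising members belong to liver, the steroidogenic members to adrenal and gonad, and other members act on bile acids, oxysterols, fatty acids, vitamin D or retinoic acid. In the thymic medulla AIRE lets mTEChi transcribe genes of other tissues so that developing T cells meet those self-antigens. Patients with inherited AIRE deficiency can make autoantibodies to P450 enzymes, among them the side-chain cleavage enzyme and the steroid hydroxylases of the adrenal cortex, and the liver enzyme CYP1A2.

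On the C57BL/6 (B6) background, an Aire null line gave 3 wild-type, 5 Aire+/- and 4 Aire-/- libraries. The Y86C line gave 3 wild-type, 3 +/Y86C and 3 Y86C/Y86C libraries, and the C313X line gave 3 wild-type, 2 +/C313X and 3 C313X/C313X libraries. The C442G line gave 3 wild-type, 5 +/C442G and 6 C442G/C442G libraries. On the NOD background, the V303M line gave 3 wild-type, 3 +/V303M and 3 V303M/V303M libraries. A further NOD table held 3 Aire+/- and 3 Aire-/- libraries, then 4 of +/C313Y beside 5 wild types, and 3 -/C313Y libraries, in which C313Y faces a null allele, with 3 wild types. Allele names give the amino acid, its position and the amino acid that replaces it, with X for a stop. Each mutant group was compared with the wild type of its own line, except that NOD Aire-/- was compared with NOD Aire+/-. The labels name no sex, litter or sequencing batch, and say nothing of whether libraries came from single or pooled mice, so p-values measure the spread between these libraries. A further library is titled wild type but carries an Aire -/- genotype label and entered no comparison, and 2 of the 5 wild types beside +/C313Y are titled C313T.

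Library totals ran from 1016619 to 7225403 counts. Aire RNA itself rose in B6 Aire-/- from 2125 to 3162 CPM (log2 change 0.68 ± 0.14, adjusted p = 0.00197) and in Y86C/Y86C from 1685 to 3553 CPM, and a tag near the 3′ end does not check a genotype whose change lies elsewhere in the gene. All 10 mTEChi markers, among them Aire, Cd74 and Cd80, were counted in every group. They summed to 42814 to 45114 CPM in the B6 null-line wild types and 48021 to 64610.1 CPM in Aire-/-. Of the 10, 8 were called higher in Aire-/-, where 17.7% of all tested genes were. Markers of other cells were counted too. The macrophage and dendritic cell list (9 of 10 listed in that table) summed to 1014 to 1249 CPM in those wild types and 1044 to 1465 CPM in Aire-/-, and the thymocyte list to 75.5 to 92.9 and 57.8 to 122 CPM. In the C313X table both lists were lower in the homozygotes, at 1845 to 3634 against 1353 to 1558 CPM and at 151 to 195 against 60.8 to 84.3 CPM. The cortical epithelium list was higher in the mutants, at 2352 to 2428 CPM in null-line wild types against 4129 to 5087 CPM in B6 Aire-/- and at 3510.3 to 3899 against 6465 to 7492 CPM in the Y86C line. It did not overlap in any homozygous, null or -/C313Y group, V303M/V303M included, and overlapped in +/C313Y. The enterocyte list was lower without overlap in all 4 B6 homozygous groups and NOD Aire-/-, at 2368 to 2561 against 865 to 976 CPM in the B6 null line and 3178 to 3882 against 1669 to 1781 CPM in the Y86C line, and overlapped in the C313Y groups and V303M/V303M. In bulk libraries, fewer cells that express a gene and less of its RNA per cell cannot be told apart, and the part that other cells play in the P450 changes was not tested.

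The promoters of 4 members are shown because their genes mark the contrasts described here. Cyp4f14 and Cyp4f13 are neighbours on chromosome 17 that behaved differently, Cyp1a2 was reduced to 0 counts in 2 homozygous groups, and Cyp26a1 rose in B6 homozygotes. Each sequence is from RefSeq, build GRCm38.p6, covers 250 bases before to 50 bases after the gene's start, and is written 5′ to 3′ on the gene's own strand with CpG dinucleotides in capitals.
Cyp4f14, chr17:32917293-32917592, minus strand: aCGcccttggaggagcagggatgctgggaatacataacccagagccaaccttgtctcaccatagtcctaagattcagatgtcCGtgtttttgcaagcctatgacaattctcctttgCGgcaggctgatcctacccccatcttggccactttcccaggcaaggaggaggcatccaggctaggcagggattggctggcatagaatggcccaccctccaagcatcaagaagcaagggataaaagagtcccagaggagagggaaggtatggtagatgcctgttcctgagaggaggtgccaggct
Cyp4f13, chr17:32947312-32947611, minus strand: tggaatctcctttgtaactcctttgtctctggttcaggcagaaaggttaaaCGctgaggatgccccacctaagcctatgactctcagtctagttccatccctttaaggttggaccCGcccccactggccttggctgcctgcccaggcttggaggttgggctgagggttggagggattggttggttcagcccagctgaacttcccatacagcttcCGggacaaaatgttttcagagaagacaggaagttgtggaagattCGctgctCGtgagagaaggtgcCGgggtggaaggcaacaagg
Cyp1a2, chr9:57683606-57683905, minus strand: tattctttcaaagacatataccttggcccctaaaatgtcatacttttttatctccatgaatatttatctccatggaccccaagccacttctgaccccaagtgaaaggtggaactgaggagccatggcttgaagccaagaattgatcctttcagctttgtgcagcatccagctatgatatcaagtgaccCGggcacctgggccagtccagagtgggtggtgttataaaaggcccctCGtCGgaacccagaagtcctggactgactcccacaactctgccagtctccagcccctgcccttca
Cyp26a1, chr19:37697558-37697857, plus strand: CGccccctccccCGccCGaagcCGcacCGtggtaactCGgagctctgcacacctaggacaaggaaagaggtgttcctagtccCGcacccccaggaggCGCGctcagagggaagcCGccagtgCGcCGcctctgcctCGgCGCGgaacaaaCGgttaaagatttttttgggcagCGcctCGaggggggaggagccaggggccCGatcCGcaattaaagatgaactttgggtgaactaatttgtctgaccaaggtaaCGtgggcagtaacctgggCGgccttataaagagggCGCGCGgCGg
The Cyp4f14 window held 3 CpG, that of Cyp4f13 held 6, that of Cyp1a2 held 3 and that of Cyp26a1 held 26. The 55 members with a RefSeq promoter had a median of 3 CpG, against 7 over 27025 genes. For the 25 of these members that were called only lower the median was 4, for the 5 called only higher it was also 4, and Cyp2a5, called in both directions, had 2. The motif TATAAA, the TATA box core, was found on either strand in 38.2% of the 55 members and in 14.2% of all genes. GCGTG, the core bound by the aryl hydrocarbon receptor, was found in 23.6% of members and 32.6% of all genes, and AGTTCA, a site core of nuclear receptors, in 12.7% and 14%. A match describes letters in a window and not a bound site.

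Before any mutant is considered, mTEChi held P450 RNA of every functional class. Averaged over the 23 wild-type libraries, the 69 members summed to 1073 CPM. Cyp2a5, the coumarin hydroxylase of mouse liver and nasal mucosa and the mouse counterpart of human CYP2A6, was the most abundant. Its level ran from 277 to 848 CPM over 12 B6 wild types and from 62.2 to 329 CPM over 11 NOD wild types. The 30 liver drug-metabolising members summed to 482 CPM, most of it Cyp2a5. The 6 extrahepatic members of CYP1 and CYP2 summed to 134 CPM, the 6 of vitamin D and retinoic acid to 153, the 5 broadly expressed to 118, the 5 of bile acids and oxysterols to 65.1, the 12 of fatty acids to 60.9 and the 5 steroidogenic to 60.3 CPM.

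The strains stood apart for several members, although the tables were normalised separately and the difference was not tested. Cyp26a1, which inactivates retinoic acid, was at 69.7 ± 17.8 CPM (SD, n = 12) in B6 wild types and 214 ± 47.8 CPM (SD, n = 11) in NOD wild types. The ranges, 46.8 to 115 and 136 to 275 CPM, did not overlap. Cyp4f16, a CYP4F member with no well-described substrate, went the other way, with 56.5 to 124 CPM in B6 and 20.4 to 33.2 CPM in NOD. Its neighbour Cyp4f13 was alike in both, at 47.8 ± 7.88 and 50.6 ± 8.65 CPM (SD, n = 12 and 11). Cyp1a2 overlapped between strains, at 19.4 to 80.04 and 23.7 to 79.99 CPM, as did Cyp11a1 at 25.7 to 53.4 and 30.7 to 76.4 CPM.

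Of the 69 members, 42 passed the filter on low counts in at least 1 table and were tested, and 27 never did. The highest wild-type mean among those 27 was 2.35 CPM. Changes are log2 fold changes from edgeR's quasi-likelihood test with their standard errors, after scaling by trimmed mean of M values, and a call is a Benjamini-Hochberg adjusted p below 0.05 over all genes tested in the table. Over the 13 comparisons, 29 members were called lower at least once and 9 higher at least once, with Cyp2a5 in both. The share of all genes called at least once was not counted, so these totals do not set P450 genes apart from other genes. Cyp4f13, Cyp21a1, Cyp2d22, Cyp3a11 and Cyp2c44 were tested and never called. Because a gene can pass the filter through its wild types alone, all these counts cover the tested members only. Counts of single comparisons are read beside the share of all tested genes called.

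In most groups without a wild-type Aire copy, P450 genes of most classes were called lower. In B6 Aire-/-, 8 of 22 tested members were called lower and 4 higher, where 18.9% and 17.7% of all tested genes were. In Y86C/Y86C the counts were 19 lower and 3 higher of 28 (all genes 27.9% and 21.7%). In C313X/C313X they were 15 and 2 of 34 (15.2% and 7.85%), and in C442G/C442G 20 and 4 of 32 (23.1% and 19.5%). NOD Aire-/- had 11 lower and 1 higher of 30 (9.11% and 4.21%), and NOD -/C313Y had 8 lower and 5 higher of 30 (12.9% and 9.83%). The median log2 change of the tested members was -0.20 in B6 Aire-/-, -1.64 in Y86C/Y86C, -1.14 in C313X/C313X, -1.23 in C442G/C442G, -0.80 in NOD Aire-/- and -0.37 in -/C313Y, while the median over all tested genes was -0.03 or nearer to 0. With DESeq2, which tests more low members, the B6 Aire-/- count of 12 called of 22 became 20 of 51. The Y86C/Y86C count of 22 of 28 became 38 of 61, and the C442G/C442G count of 24 of 32 became 37 of 56. DESeq2 called lower 2813 of 15988 genes in B6 Aire-/-, 4087 of 16262 in Y86C/Y86C and 4038 of 16301 in C442G/C442G. It called higher 1936, 2402 and 2350 genes, in that order. The NOD Aire-/- count of 12 fell to 6 without Aire-/- replicate 404.

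V303M/V303M differed from these groups in its counts, with 1 member called lower and 0 higher of 33, Cyp11a1 being the 1 (all genes 0.0511% lower and 0.0146% higher). At an unadjusted p under 0.05 there were 8 members of 33, and 795 of all 13700 tested genes. Among carriers of 1 mutant copy, +/C442G had 12 lower and 3 higher of 32 (13.4% and 13.1%), and NOD +/C313Y had 8 lower and 5 higher of 30 (11% and 6.36%), with median changes of -0.45 and -0.36. B6 Aire+/- had 1 lower, Cyp1a2, and 0 higher of 22 (0.102% and 0.378%), and +/Y86C had 1 lower, Cyp11a1, and 0 higher of 28 (1.04% and 2.32%). In +/C313X and +/V303M edgeR called 0 members of 34 and of 33 (all genes 0% lower and 0% higher, and 0% and 0%). At an unadjusted p under 0.05 there were 0 members in +/C313X and 4 in +/V303M, and DESeq2 called 0 in each. Over all tested genes, 440 of 13626 and 499 of 13700 had an unadjusted p under 0.05.

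**Figure D1:**
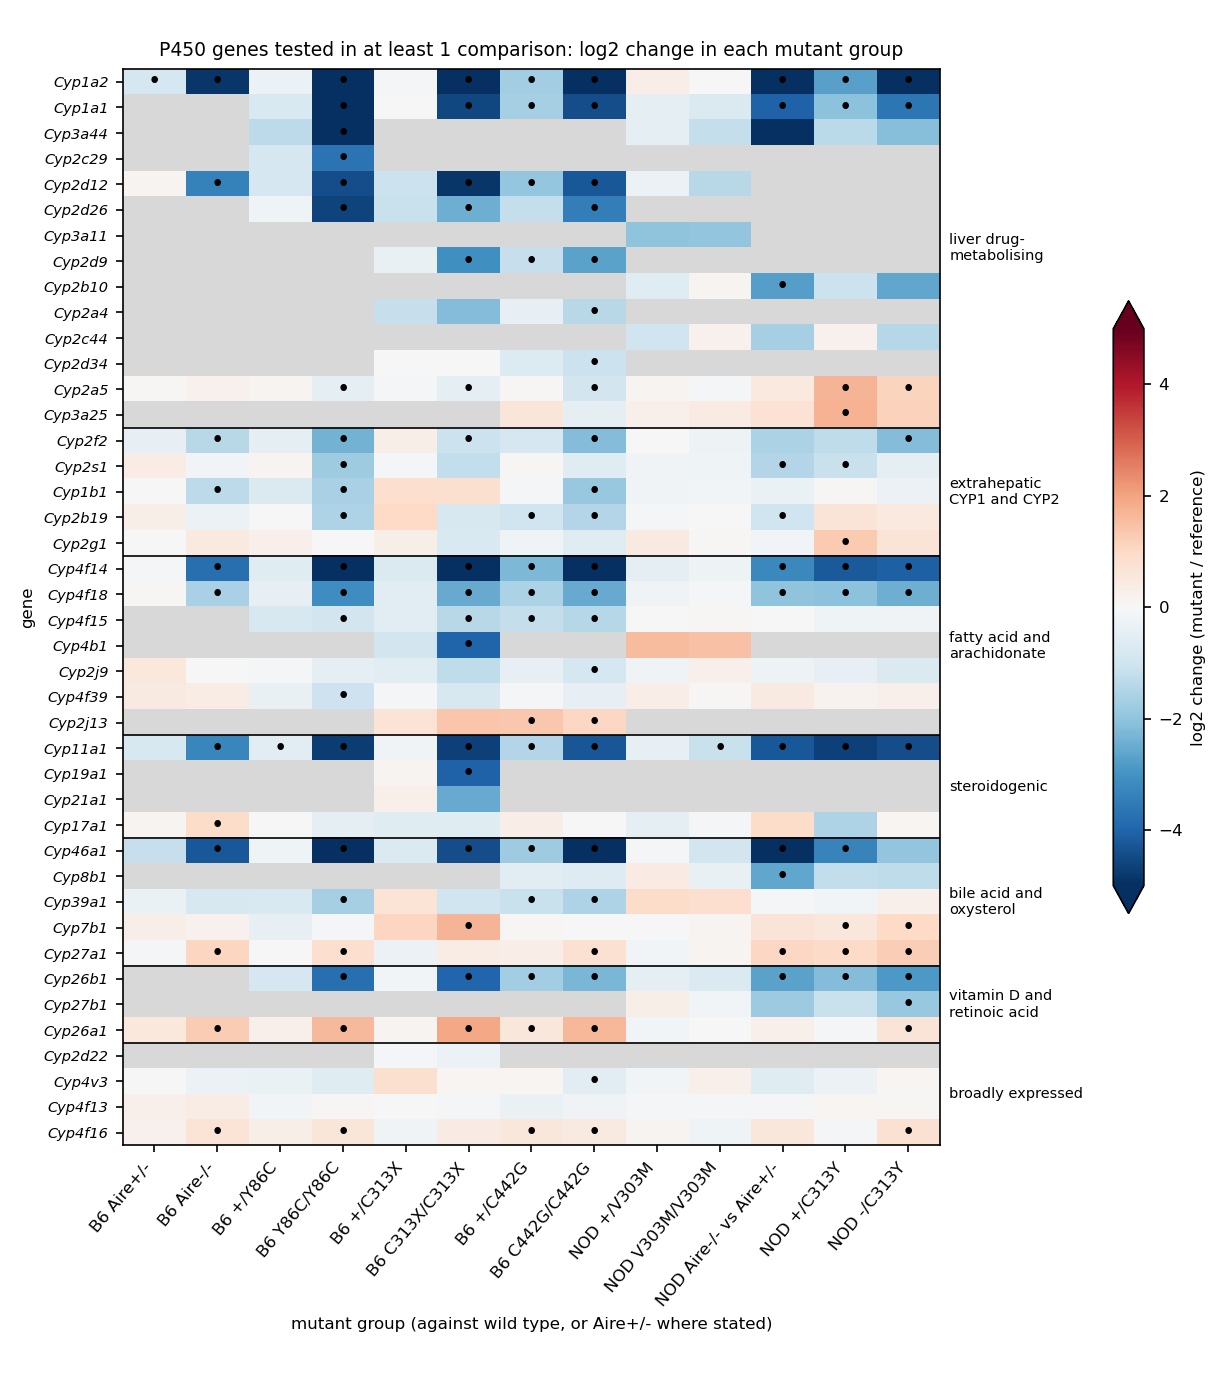
Heat map of the log2 change of each of the 42 tested P450 genes (rows, grouped by class) in each of the 13 comparisons (columns); dots mark calls, grey cells were not tested, and the colour scale ends at 5 in each direction. The +/C313X and +/V303M columns hold no dot and the V303M/V303M column holds 1, at Cyp11a1, while Cyp1a2 and Cyp11a1 are blue with dots in every other homozygous or null column.

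Cyp1a2, the liver oxidase of caffeine and aromatic amines, fell to or near 0 in most of these groups. Its values in the B6 null line were 32.5, 39 and 55.6 CPM in wild type, 18.3, 22, 22.4, 25.1 and 25.8 CPM in Aire+/- and 1.11, 1.13, 1.54 and 1.6 CPM in Aire-/-. The ranges of the 3 genotypes did not overlap, and the Aire-/- change was -4.86 ± 0.28, adjusted p = 5.68e-14. Y86C/Y86C libraries held 0, 0 and 0.588 CPM against 44.6, 44.9 and 57.3 CPM in wild type (-7.29 ± 0.42, adjusted p = 3.17e-14). The 371 and 2 counts behind these groups give a ratio of 223 with a 95% counting interval of 61.3 to 1848. In C313X/C313X there were 0 counts in all 3 libraries against 59.9, 63.5 and 80.04 CPM in wild type (adjusted p = 1.94e-06), and NOD Aire-/- also had 0 counts against 24.6, 26.1 and 30.6 CPM in NOD Aire+/- (adjusted p = 5.34e-05). With 267 counts in the heterozygotes and the floor of 3 counts over the group, the NOD level was at least 58.2-fold lower in Aire-/-. C442G/C442G libraries ran from 0 to 0.353 CPM, with a median of 0.276, against 19.4, 33.6 and 52.5 CPM in wild type (-7.07 ± 0.43, adjusted p = 1.35e-13). The highest mean among these 5 groups was the 1.34 CPM of B6 Aire-/-.

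In NOD mice with C313Y, Cyp1a2 was detected in every library that also carried a wild-type allele. The +/C313Y libraries held 2.81, 3.24, 7.87 and 13.3 CPM against 24.6, 31.1, 49.8, 58.8 and 79.99 CPM (-2.73 ± 0.40, adjusted p = 6.04e-05), and the -/C313Y libraries held 0, 0 and 0.677 CPM against 23.7, 35.4 and 38.5 CPM (-6.97 ± 0.83, adjusted p = 5.54e-06). Every mutant library lay below every wild type of its line. The difference between both effects was -4.24 ± 1.16 with an adjusted p of 0.111, so it did not pass. V303M/V303M libraries were at 35, 41.7 and 41.8 CPM against 35.7, 39.9 and 46.4 CPM (0.00 ± 0.17, adjusted p = 1). Wild type and V303M homozygote overlapped for this gene.

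Cyp1a1, the hydrocarbon hydroxylase that the aryl hydrocarbon receptor induces, lies next to Cyp1a2 and was several times less abundant. It was called lower in 7 of the 11 comparisons in which it was tested and was not tested in the B6 null line. In Y86C/Y86C it had 0 CPM in all 3 libraries against 2.69, 4.46 and 6.05 CPM (adjusted p = 1.98e-05), at least 13.6-fold lower from 34 wild-type counts. In C313X/C313X it held 0, 0.27 and 0.316 CPM against 2.37, 8.6 and 9.2 CPM (-4.54 ± 0.89, adjusted p = 0.00401). Its calls in +/C442G, NOD Aire-/-, +/C313Y and -/C313Y were each lost when at least 1 library was left out. Cyp2d12, a liver CYP2D member, was called lower in each of the 4 B6 homozygous groups. It stood at 17.1, 18.3 and 18.3 CPM in the C442G wild types, 2.59, 3.67, 4.09, 4.31 and 5.97 CPM in +/C442G (-1.92 ± 0.28, adjusted p = 4.28e-06) and 0 to 1.07 CPM, with a median of 0.864, in C442G/C442G (-4.25 ± 0.33, adjusted p = 4.44e-12). The 3 genotypes did not overlap. Its neighbours Cyp2d26 and Cyp2d9 were called lower in 3 comparisons each and Cyp2d34 in 1. Cyp3a44 is a liver CYP3A member of mice whose transcript end matches that of the pseudogene Cyp3a63-ps at 96.3% over 403 bases, so that its counts are uncertain. Of the 7 comparisons that tested it, Cyp3a44 was called lower in Y86C/Y86C, from 5.38, 5.67 and 8.54 CPM to 0, 0 and 0.294 CPM (-5.19 ± 0.75, adjusted p = 9.02e-07). NOD Aire-/- had 0 counts against 13, 8 and 8 in Aire+/-, which did not pass. C442G/C442G also had 0 counts in every library, against 5, 12 and 6 in wild type, but the gene was not tested there. Cyp2c29 in Y86C/Y86C (-3.68 ± 0.75, adjusted p = 0.000136), Cyp2b10 in NOD Aire-/- (-2.77 ± 0.93, adjusted p = 0.0447) and Cyp2a4 in C442G/C442G (-1.4 ± 0.49, adjusted p = 0.02) were each called once. The transcript end of Cyp2a4 matches that of Cyp2a21-ps at 95.6% over 295 bases and that of Cyp2a5 at 97.0% over 236 bases. Its counts are therefore uncertain too. The Cyp2b10 call was lost without any 1 of 5 of the 6 libraries, with adjusted p up to 0.203, and with DESeq2, and the Cyp2a4 call without C442G wild type 86 or 89, with adjusted p up to 0.125.

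**Figure D2:**
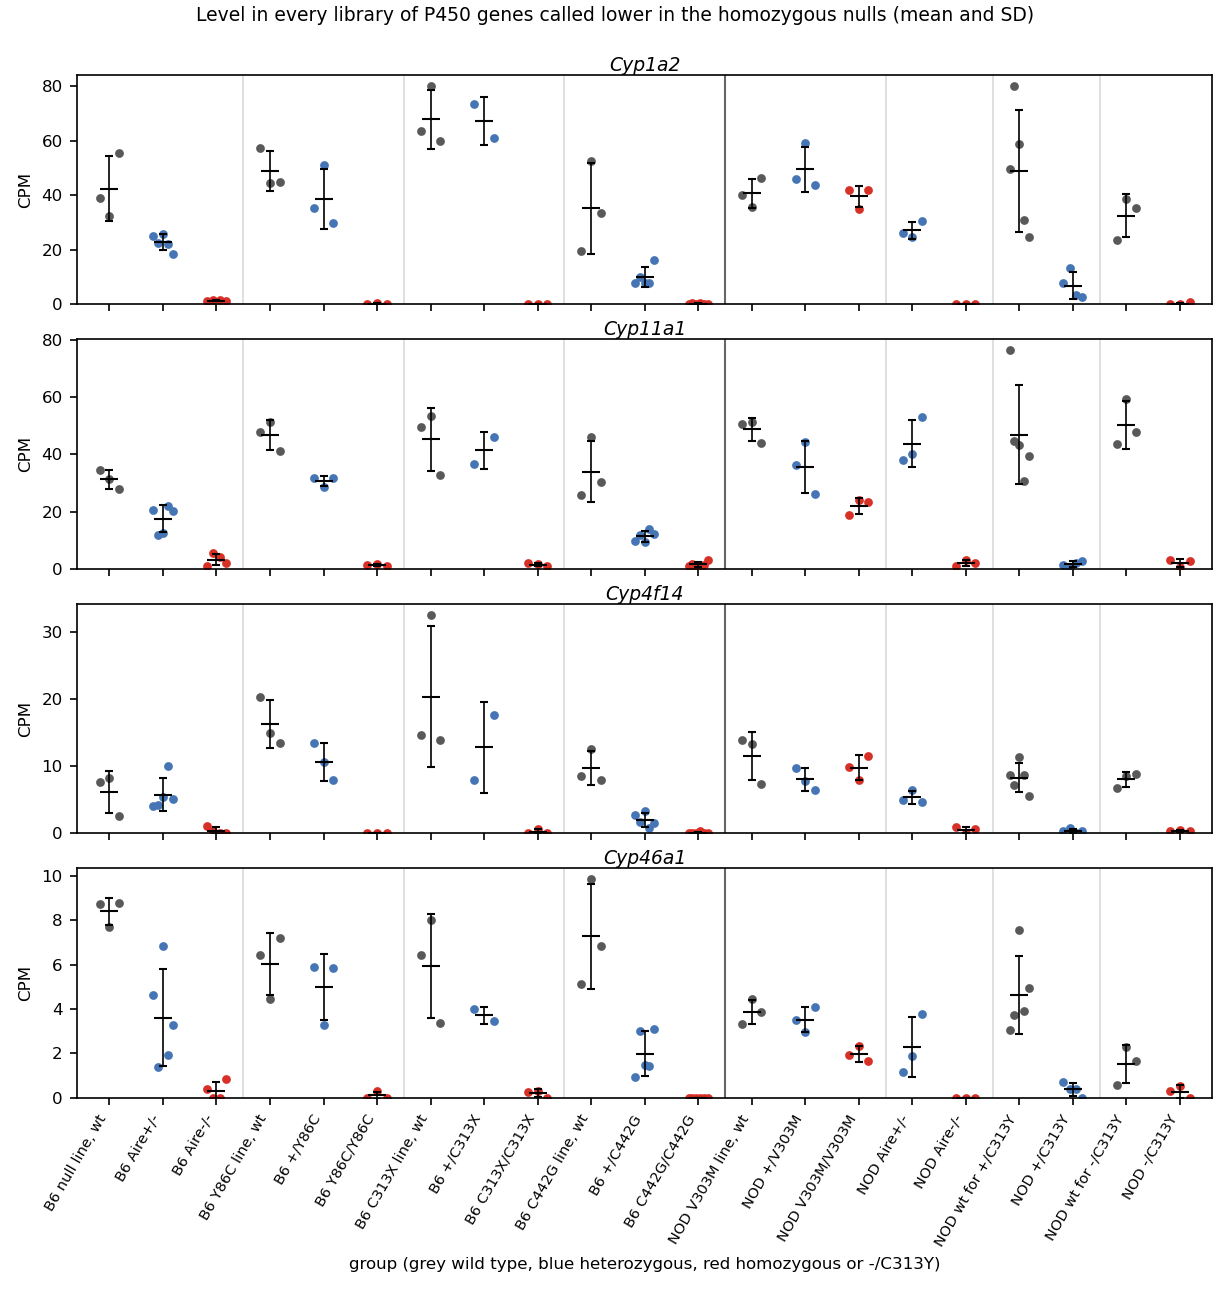
Level in CPM of Cyp1a2, Cyp11a1, Cyp4f14 and Cyp46a1 in every assigned library (points) with the group mean and SD (bars), groups in the order of their tables. All 4 genes lie at or near 0 in the red groups except V303M/V303M, where Cyp1a2 overlaps its wild type and Cyp11a1 lies at 18.6 to 23.9 CPM.

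Cyp2a5 did not follow Cyp1a2. In B6 Aire-/- it stood at 309, 320.5, 368 and 397 CPM against 277, 316 and 385 CPM in wild type, with overlapping ranges (0.20 ± 0.25, adjusted p = 0.59). In C442G/C442G it fell, from 578, 719.6 and 848 CPM to 266 to 392 CPM (-0.93 ± 0.13, adjusted p = 8.51e-07), and smaller declines in Y86C/Y86C (-0.44 ± 0.14, adjusted p = 0.0202) and C313X/C313X (-0.50 ± 0.16, adjusted p = 0.0488) lost their call when 1 of several libraries was left out. In +/C442G it held 581, 607, 709, 732 and 775 CPM (0.06 ± 0.14, adjusted p = 0.813). In NOD mice with C313Y it was called higher, at 242, 258, 265 and 299 CPM against 62.2, 82.6, 83.1, 89 and 122 CPM (1.71 ± 0.16, adjusted p = 5.43e-09) and at 313, 342 and 515 CPM against 174, 184 and 236 CPM (1.1 ± 0.19, adjusted p = 6.35e-05). Those wild types were themselves low. The NOD V303M line had wild types at 299, 323 and 329 CPM and NOD Aire+/- was at 288, 323 and 373 CPM, so the C313Y mutants lay at or below the level of other NOD libraries with a working Aire copy, except for the highest -/C313Y library. The last 500 bases of the Cyp2a5 transcript match those of Cyp2a4 at 97.0% over 236 bases, so reads of both may be split by the authors' counting. Cyp3a25, whose end matches another CYP3A gene, was also called higher in +/C313Y (1.74 ± 0.49, adjusted p = 0.0116), a call lost without +/C313Y replicate 50 (0.122).

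Among the extrahepatic members, Cyp2f2 and Cyp2g1 were the most abundant. Cyp2f2, the naphthalene oxidase of lung club cells, was called lower in all 4 B6 homozygous groups and in -/C313Y. In NOD Aire-/- it was not called, although its 10.4, 27.3 and 30.8 CPM lay below the 69.9, 79.2 and 86.4 CPM of Aire+/-. It held 6.92, 6.98 and 7.06 CPM in Y86C/Y86C against 40.6, 40.9 and 47.5 CPM (-2.37 ± 0.21, adjusted p = 4.82e-11). C442G/C442G libraries ran from 4.77 to 20.5 CPM, with a median of 13.1, against 55.8, 62 and 80.5 CPM (-2.15 ± 0.34, adjusted p = 0.00013). In neither line did a homozygote reach a wild type. The B6 Aire-/- call (-1.38 ± 0.42, adjusted p = 0.0281) was lost without any 1 of 6 of the 7 libraries, and the C313X/C313X call (-1.06 ± 0.32, adjusted p = 0.0355) without any 1 of 5 of the 6. Cyp2g1, the olfactory mucosa P450, did not pass in Y86C/Y86C, with 26.3, 36.4 and 38.2 CPM against 24.6, 28.7 and 62.8 CPM (0.03 ± 0.36, adjusted p = 0.956). Its 1 call was higher in +/C313Y, at 25.5, 28.5, 39.7 and 42.2 CPM against 9.999, 12.6, 13.6, 16.6 and 23.1 CPM (1.29 ± 0.29, adjusted p = 0.00215), where the wild types lay below those of the V303M line, which held 43.9, 52 and 94.2 CPM. Cyp2b19, an arachidonate epoxygenase of mouse skin, was called lower in 4 comparisons, and Cyp1b1 and Cyp2s1 in 3 each.

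Cyp11a1, which cleaves the cholesterol side chain in the first step of steroid synthesis, was called lower in 10 of 13 comparisons, more than any other member. B6 Aire-/- libraries held 1.13, 1.93, 4.11 and 5.61 CPM against 27.8, 31.4 and 34.6 CPM in wild type (-3.26 ± 0.30, adjusted p = 1.62e-09), with Aire+/- between at 11.9, 12.7, 20.1, 20.5 and 22 CPM (-0.81 ± 0.23, adjusted p = 0.131). The wild-type and heterozygous ranges did not overlap although that change did not pass. Y86C/Y86C held 0.998, 1.38 and 1.76 CPM and +/Y86C 28.7, 31.8 and 31.9 CPM against 41.3, 47.7 and 51.5 CPM (-4.74 ± 0.26, adjusted p = 1.31e-15, and -0.55 ± 0.15, adjusted p = 0.0404). The same order of wild type, carrier and homozygote was seen with C442G, at 25.7, 30.2 and 45.9 CPM, 9.3, 9.62, 11.7, 12 and 13.8 CPM and 0.8003 to 2.99 CPM, with a median of 1.29, respectively (+/C442G -1.47 ± 0.21, adjusted p = 3.78e-06). In C313X it was not, since +/C313X libraries at 36.7 and 46 CPM overlapped the wild types at 32.8, 49.7 and 53.4 CPM while C313X/C313X held 0.949, 1.6 and 1.89 CPM (-4.66 ± 0.33, adjusted p = 6.47e-06).

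On the NOD background Cyp11a1 was the 1 member that V303M/V303M lowered, to 18.6, 23.2 and 23.9 CPM from 44, 50.7 and 51.3 CPM (-1.11 ± 0.18, adjusted p = 0.0276). The groups did not overlap, but the call was lost without any 1 of 5 of the 6 libraries, with adjusted p between 0.0846 and 0.252. The carriers +/V303M held 26.2, 36.4 and 44.3 CPM, in between and overlapping the wild types (-0.42 ± 0.19, adjusted p = 1). Both C313Y groups were near the NOD Aire-/- level, with 0.38, 1.43, 2.03 and 2.81 CPM in +/C313Y (-4.68 ± 0.37, adjusted p = 6.33e-10) and 0.548, 2.71 and 3.08 CPM in -/C313Y (-4.44 ± 0.39, adjusted p = 7.28e-09), against 0.868, 1.95 and 3.16 CPM in Aire-/- (-4.25 ± 0.43, adjusted p = 1.48e-07). The Cyp11a1 ranges of +/C313Y and -/C313Y overlapped, while Cyp1a2 means in these groups were 6.8 and 0.226 CPM. The +/Y86C call was also lost without any 1 of 5 of the 6 libraries of that comparison.

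Each of the other steroidogenic members was called in at most 1 comparison. Cyp17a1, which makes the precursors of sex steroids, had 9.24, 15.4, 15.5 and 26.1 CPM in B6 Aire-/- against 8.02, 9.79 and 11.2 CPM (0.91 ± 0.30, adjusted p = 0.02). That was its only call in 13 comparisons, the ranges overlapped, and it was lost without any 1 of 3 libraries. In the other 12 comparisons its log2 change lay between -1.55 and 0.92. Cyp21a1, the steroid hydroxylase of the adrenal cortex and the main adrenal autoantigen in human Addison disease, was tested only in the C313X table. Its values there were 0, 3.38 and 3.85 CPM in wild type and 0, 0.316 and 0.958 CPM in C313X/C313X (-2.51 ± 1.08, adjusted p = 0.12), which did not pass and overlapped. Among untested groups, +/C313Y held 0, 0.358, 0.38 and 0.405 CPM against 1.85 to 3.05 CPM in wild type. The -/C313Y libraries held 0.28, 0.677 and 0.822 CPM against 1.7, 2.96 and 4.14 CPM. Y86C/Y86C did not overlap its wild type either, at 0, 0.277 and 0.882 against 0.897, 1.22 and 1.78 CPM. NOD Aire-/-, V303M/V303M and C442G/C442G overlapped their references. Cyp19a1, the aromatase, was also tested in the C313X table and fell in C313X/C313X to 0, 0 and 0.27 CPM from 1.78, 2.76 and 3.38 CPM (-4.04 ± 1.04, adjusted p = 0.0164), a call lost without C313X/C313X replicate 10 (0.0624) or 14 (0.0507). Cyp11b1 was never tested, with a wild-type mean of 1.49 CPM. It had 0 counts in every library of Y86C/Y86C, C442G/C442G, NOD Aire-/-, +/C313Y and -/C313Y, where the reference groups held 6 to 17 counts each. Adrenal and gonad markers were scarce, with 3 of 6 listed in the C313X table at a sum of 21 to 34.7 CPM in wild type and 6.48 to 22.8 CPM in C313X/C313X.

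In the fatty acid class, Cyp4f14 and Cyp4f18, both leukotriene hydroxylases in mice, were each called lower in 8 comparisons. Cyp4f14 held 0, 0, 0.401 and 1.13 CPM in B6 Aire-/- against 2.58, 7.66 and 8.28 CPM (-3.77 ± 0.69, adjusted p = 6.45e-05). Y86C/Y86C had 0 CPM in all 3 libraries against 13.5, 15 and 20.3 CPM (adjusted p = 5.54e-11), at least 49.7-fold lower from 124 wild-type counts. In C313X/C313X 2 counts were left of a wild-type 167, a ratio of 113 with a counting interval of 30.7 to 937. The +/C442G libraries were already low, at 0.716, 1.54, 1.73, 2.75 and 3.35 CPM against 7.97, 8.57 and 12.6 CPM (-2.24 ± 0.39, adjusted p = 6.17e-05), whereas Aire+/- at 4.1, 4.21, 5.15, 5.36 and 10.03 CPM overlapped its wild type (-0.07 ± 0.44, adjusted p = 0.985). In NOD, +/C313Y held 0, 0.358, 0.401 and 0.76 CPM and -/C313Y 0.28, 0.338 and 0.548 CPM, against wild types at 5.54, 7.14, 8.73, 8.74 and 11.3 CPM and 6.81, 8.5 and 8.84 CPM (-4.19 ± 0.48, adjusted p = 2.66e-07; -4.1 ± 0.54, adjusted p = 2.07e-06). No mutant library in those NOD groups reached its wild types.

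Cyp4f18, which myeloid cells also express, fell less completely, from 13.5, 17.4 and 17.8 CPM to 0.998, 1.66 and 1.76 CPM in Y86C/Y86C (-3.12 ± 0.36, adjusted p = 1.55e-08). In B6 Aire-/- it held 1.66, 2.05, 2.25 and 6.41 CPM against 7.69, 8.76 and 13.1 CPM (-1.63 ± 0.42, adjusted p = 0.00292), while the macrophage and dendritic cell list summed to 1044 to 1465 CPM against 1014 to 1249. The groups did not overlap in either line. In C313X/C313X, where that list was lower, it held 2.97, 4.79 and 6.01 CPM against 23, 32.3 and 32.8 CPM (-2.51 ± 0.31, adjusted p = 0.000218). Cyp4f15 fell in Y86C/Y86C (-0.94 ± 0.36, adjusted p = 0.0299), C313X/C313X (-1.38 ± 0.33, adjusted p = 0.012), C442G/C442G (-1.41 ± 0.35, adjusted p = 0.00151) and +/C442G (-1.19 ± 0.36, adjusted p = 0.0142). Each of those 4 calls was lost without at least 1 single library. In the NOD comparisons Cyp4f15 was called in 0, with log2 changes between -0.21 and 0.06. Cyp2j13, an epoxygenase family member, was higher in +/C442G, at 5.95, 6.41, 6.91, 7.09 and 7.16 CPM against 1.71, 2.28 and 3.83 CPM (1.36 ± 0.35, adjusted p = 0.00342), and in C442G/C442G (1.03 ± 0.34, adjusted p = 0.0152), where the ranges overlapped and the call was lost without wild type 89 (0.0711). Cyp4b1 fell in C313X/C313X (-3.99 ± 0.92, adjusted p = 0.00937), Cyp4f39 in Y86C/Y86C (-1.03 ± 0.34, adjusted p = 0.0128) and Cyp2j9 in C442G/C442G (-0.88 ± 0.25, adjusted p = 0.00429), each in 1 comparison. The Cyp4f39 call was lost with DESeq2 (0.0529) and without Y86C/Y86C replicate 4 (0.0954) or wild type 1 (0.0695).

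Bile acid and oxysterol members moved in both directions. Cyp46a1, the cholesterol hydroxylase of brain neurons, was called lower in 7 comparisons. It held 0, 0, 0.376 and 0.829 CPM in B6 Aire-/- against 7.69, 8.75 and 8.76 CPM (-4.23 ± 0.63, adjusted p = 3.52e-06) and 0 counts in all 6 C442G/C442G libraries against 5.14, 6.83 and 9.84 CPM (adjusted p = 4.84e-09), at least 54.1-fold lower from 57 counts. The carriers +/C442G lay between, at 0.916, 1.43, 1.49, 3.02 and 3.08 CPM (-1.78 ± 0.42, adjusted p = 0.00203), a call lost without wild type 88 (0.0511). Cyp27a1, the mitochondrial sterol hydroxylase that opens the acidic pathway of bile acid synthesis, rose in 6 comparisons. B6 Aire-/- held 55.5, 63.3, 66.5 and 95.8 CPM against 26.3, 33.7 and 44.9 CPM (1.08 ± 0.20, adjusted p = 0.000382) and NOD Aire-/- 59.9, 69.5 and 78.8 CPM against 33.5, 37.9 and 40.4 CPM (1.04 ± 0.23, adjusted p = 0.00169). In both strains the null libraries lay above every reference library. In -/C313Y it was at 39.2, 43.1 and 62.2 CPM against 16.3, 24.4 and 26.2 CPM (1.24 ± 0.24, adjusted p = 0.000242), and in C313X/C313X it did not pass (0.38 ± 0.15, adjusted p = 0.103). Cyp27a1 is also expressed by macrophages, whose markers summed to 1183 to 1401 CPM in NOD Aire+/- and 1159 to 1475 CPM in NOD Aire-/-.

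Cyp7b1, the oxysterol hydroxylase that acts in the acidic pathway of bile acid synthesis, was called higher in C313X/C313X, +/C313Y and -/C313Y. In C313X/C313X it held 16.5, 16.6 and 20.3 CPM against 2.37, 5.75 and 14.7 CPM (1.68 ± 0.48, adjusted p = 0.0271). That call was lost without any 1 of 3 of the 6 libraries (C313X/C313X replicates 1 and 10 and wild type 7), with adjusted p up to 0.101, and at 0.0509 with only the compared groups in the fit. The wild types of that line were lower than those of the other B6 lines, which had 12.4, 16.4 and 16.6 CPM in the null line, 23.1, 24.2 and 26.7 CPM in the Y86C line and 18.3, 18.6 and 22.8 CPM in the C442G line. In -/C313Y it held 22.7, 29.4 and 32 CPM against 12.4, 15.7 and 19.3 CPM (0.99 ± 0.23, adjusted p = 0.00244). The +/C313Y call (0.56 ± 0.19, adjusted p = 0.0462) was lost without any 1 of 7 of the 9 libraries. Cyp8b1, the hydroxylase that sets the share of cholic acid, was called lower in NOD Aire-/-, at 0, 1.3 and 1.58 CPM against 5.29, 7.2 and 7.31 CPM (-2.6 ± 0.77, adjusted p = 0.0211). That call was lost without Aire-/- replicate 404 (0.126) or Aire+/- replicate 402 (0.0592). Cyp39a1 was called lower in 3 comparisons.

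The retinoic acid hydroxylases Cyp26a1 and Cyp26b1, which do the same reaction, went in opposite directions. Cyp26a1 rose in all 4 B6 homozygous groups, from 67.6, 77.2 and 115 CPM to 249.7, 288 and 340.1 CPM in C313X/C313X (1.95 ± 0.31, adjusted p = 0.00188) and from 72.2, 72.6 and 76.6 CPM to 168, 190.1 and 218 CPM in Y86C/Y86C (1.63 ± 0.11, adjusted p = 1.48e-13). In B6 Aire-/- it held 101, 139, 151 and 154 CPM against 50.3, 56.2 and 72.9 CPM (1.28 ± 0.26, adjusted p = 0.00258). All homozygous B6 libraries lay above every wild type of their line. In NOD Aire-/- it did not pass, at 293, 349.7 and 416 CPM against 281, 334 and 359 CPM in NOD Aire+/- (0.27 ± 0.14, adjusted p = 0.27). That reference lay above all 8 NOD wild types of the same table, at 136 to 275 CPM. The part that strain or the genotype of the reference plays was not tested. The -/C313Y call (0.64 ± 0.15, adjusted p = 0.00171) had an adjusted p of 0.259 when all 8 NOD wild types of that table served as reference, and the +/C442G call (0.58 ± 0.20, adjusted p = 0.0324) was lost without any 1 of 6 of the 8 libraries. Cyp26b1 was not tested in the B6 null line and was called lower in 7 of the 11 other comparisons. It fell from 8.97, 10.1 and 14.6 CPM to 0, 0.998 and 1.11 CPM in Y86C/Y86C (-3.76 ± 0.49, adjusted p = 1.42e-07) and from 7.11, 7.97 and 7.99 CPM to 1.19, 1.86, 2.16, 2.47 and 3.21 CPM in +/C442G (-1.72 ± 0.40, adjusted p = 0.00141). In both cases mutant and wild-type libraries did not overlap. Cyp27b1, which activates vitamin D, was called lower in -/C313Y only (-1.91 ± 0.67, adjusted p = 0.038). That call was lost without any 1 of 5 of the 6 libraries, with DESeq2 (0.0568) and with all 8 wild types (0.118).

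Of the broadly expressed members, Cyp4f16 rose in 5 comparisons and Cyp4f13 was never called. Cyp4f16 stood at 84.5, 88.8, 103 and 105 CPM in B6 Aire-/- against 57.6, 61.8 and 73.3 CPM (0.69 ± 0.12, adjusted p = 6.04e-05), and at 112, 115, 117, 118 and 122 CPM in +/C442G against 80.6, 87.4 and 93.4 CPM (0.56 ± 0.12, adjusted p = 0.000512). In both lines mutant libraries lay above the wild types without overlap. Cyp4f13 held 30.6, 50.7 and 51 CPM in Y86C wild types and 31.5, 39.1 and 45.9 CPM in Y86C/Y86C (0.05 ± 0.18, adjusted p = 0.851). Its log2 change lay between -0.33 and 0.36 over the 13 comparisons. Cyp4v3, a fatty acid hydroxylase of the eye and other tissues, was called lower in C442G/C442G (-0.54 ± 0.20, adjusted p = 0.032), a call lost without any 1 of 5 of the 9 libraries, with adjusted p up to 0.163, and without the filter on low counts (0.0516).

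**Figure D3:**
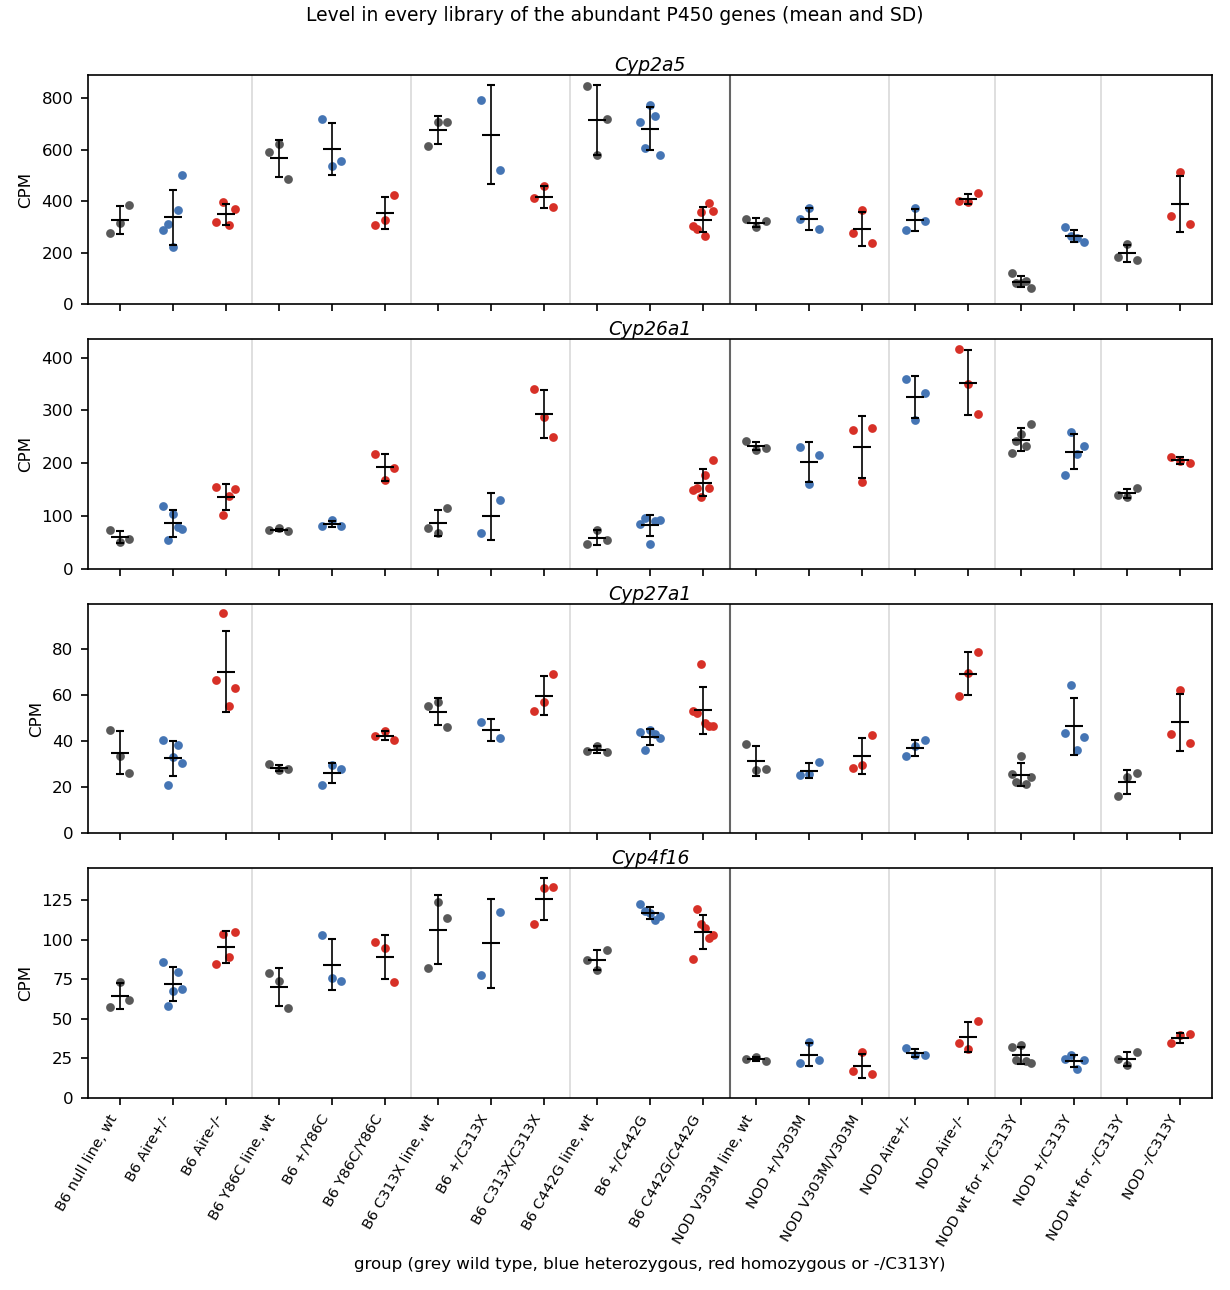
Level in CPM of Cyp2a5, Cyp26a1, Cyp27a1 and Cyp4f16 in every assigned library (points) with the group mean and SD (bars). Cyp26a1 is higher in the red B6 groups than in their wild types, the wild types of the C313Y lines are the lowest Cyp2a5 groups, and Cyp4f16 is lower in every NOD group than in every B6 wild-type group.

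Carriers of 1 mutant copy were set against carriers of the null allele in a joint fit of the 4 B6 tables. The effect of +/C442G was more negative than that of Aire+/- for 4 members, where 5.75% of all genes tested differed. These were Cyp4f14 (difference -2.17 ± 0.62, adjusted p = 0.0252), Cyp4f15 (-2.12 ± 0.63, adjusted p = 0.033), Cyp2d12 (-2.05 ± 0.57, adjusted p = 0.0226) and Cyp4f18 (-1.64 ± 0.45, adjusted p = 0.0211). Cyp4f15 did not pass the filter in the null table, where 13 wild-type and 37 Aire+/- counts stand behind its Aire+/- effect. Each of the 4 calls was lost without any 1 of 3 to 7 libraries, and the count was 0 without the null-line wild type titled Aire_wt_434. For +/Y86C against Aire+/- edgeR called 0 of 40 members (0% of all genes), with 7 members at an unadjusted p under 0.05 and 0 called by DESeq2. Of all 14547 tested genes, 540 had an unadjusted p under 0.05. Cyp1a2 means were 9.9 CPM in +/C442G of a wild-type 35.2, 22.7 in Aire+/- of 42.4, 38.7 in +/Y86C of 48.9 and 67.2 in +/C313X of 67.8. The Cyp1a2 call in Aire+/- was lost without Aire_wt_434.

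Homozygous mutants were set against the null in the same way. Cyp26b1 had a more negative change in Y86C/Y86C than in Aire-/- (difference -2.75 ± 0.77, adjusted p = 0.0447, all genes 2%), a call lost without any 1 of 12 of the 13 libraries. In C313X/C313X, Cyp26b1 (-2.99 ± 0.79, adjusted p = 0.0285) and Cyp1a2 (adjusted p = 0.0166, with 0 counts in C313X/C313X) had more negative changes than in Aire-/- and Cyp7b1 a more positive one (1.65 ± 0.38, adjusted p = 0.0121, all genes 2.69%). Cyp26b1 did not pass the filter in the null table either, with 22 wild-type and 18 Aire-/- counts. The Cyp26b1 call was lost without any 1 of 6 libraries, the Cyp1a2 call without C313X/C313X replicate 1 and the Cyp7b1 call without C313X wild type 6. In C442G/C442G, Cyp2a5 had the more negative change (-1.08 ± 0.26, adjusted p = 0.0166, all genes 2.91%), a call lost without Aire_wt_430. Between the effects of -/C313Y and +/C313Y in NOD edgeR called 0 of 30 members (all genes 0.427%), with 4 at an unadjusted p under 0.05 and 2 called by DESeq2. Of all 13827 tested genes, 1605 had an unadjusted p under 0.05. DESeq2 called 104 higher and 87 lower of 12087 genes.

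**Figure D4:**
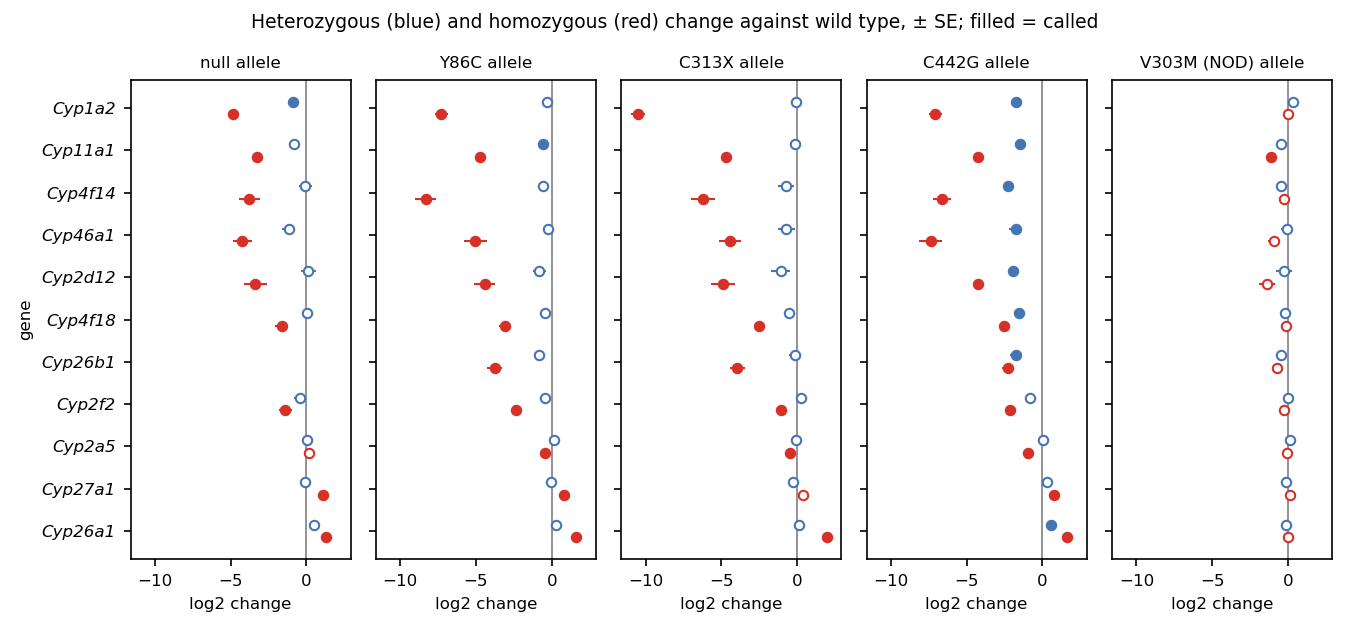
Log2 change with SE of 11 P450 genes in heterozygous (blue) and homozygous (red) groups of 5 lines; filled points were called. Blue points of +/C442G lie left of 0 for Cyp1a2, Cyp11a1, Cyp4f14, Cyp46a1, Cyp2d12, Cyp4f18 and Cyp26b1 and are filled, and the V303M panel has 1 filled point, at Cyp11a1; fitted changes of Cyp1a2 in C313X/C313X, Cyp4f14 in Y86C/Y86C and Cyp46a1 in C442G/C442G rest on groups at 0 counts.

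The number of P450 genes with at least 1 count was compared within each table after thinning every library to the depth of that table's smallest. B6 wild types of the null line held 45.5 ± 1.62 members (SD, n = 3), Aire+/- 44.7 ± 1.23 (n = 5) and Aire-/- 33.2 ± 0.883 (n = 4). In the Y86C table the numbers were 58.8 ± 1.71, 55.6 ± 0.889 and 32.1 ± 3.96 for wild type, carrier and homozygote (n = 3 each). In the C442G table they were 53.6 ± 1.51, 48.5 ± 1.64 and 36.9 ± 1.08 (n = 3, 5 and 6). In the C313X table they were 44.2 ± 1.35, 44.4 ± 0.669 and 28.4 ± 1.58 (n = 3, 2 and 3). In these B6 lines the homozygous or null groups held fewer members than their wild types, and the +/C442G carriers lay between. Each table lists only genes whose highest count is at least 6, so a scarce member can be listed through its wild types alone. Cyp2t4 in the C442G table had 3, 6 and 3 counts in wild type and 0 in every homozygote. Lower numbers in mutants can thus be partly built into the tables, and the matching numbers over all genes were not counted. In the V303M table the 3 genotypes were close, at 51.5 ± 1.32, 49.5 ± 1.5 and 49.1 ± 2.39 (n = 3 each). In NOD, Aire-/- held 34.5 ± 2.03 against 47.9 ± 1.7 in Aire+/-, +/C313Y 37.9 ± 1.24 against 48.9 ± 2.48, and -/C313Y 34.8 ± 2.77 against 48.2 ± 1.43. Summed P450 RNA without Cyp2a5 was 563 ± 25.8 CPM in B6 null-line wild types and 529.6 ± 62.9 CPM in Aire-/-, with overlapping ranges. In the other lines it was lower without overlap. It went from 685 ± 49.1 to 488 ± 11.7 CPM in Y86C/Y86C, from 742 ± 50.2 to 654 ± 28.2 CPM in C313X/C313X and from 729 ± 45.5 to 525 ± 34.3 CPM in C442G/C442G. On NOD it went from 855 ± 47.1 to 706 ± 37.5 CPM in Aire-/- and from 717 ± 37.4 to 538 ± 44.7 CPM in +/C313Y. It went from 555 ± 39.6 to 486 ± 11.3 CPM in -/C313Y and from 813 ± 36.7 to 739 ± 4.42 CPM in V303M/V303M. These sums are plain CPM without TMM scaling. In the same units Cyp4f13 went from a mean of 50.9 to 43.5 CPM in C313X/C313X, where its fitted change was -0.04. How much of each difference in the sums comes from scaling was not tested.

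Position on the chromosome was examined in GENCODE vM21 annotation of GRCm38, in which 68 members were found. With members up to 500 kb apart joined, 49 of them lay in 9 clusters. On chromosome 9, Cyp1a2 (57676937 to 57683703) and Cyp1a1 (57687928 to 57703824) lie 4.2 kb apart and Cyp11a1 (58006411 to 58027023) lies 302.6 kb further on, and all 3 were called lower. Tested genes of this interval and its flanks that are not P450 genes numbered 9. Of these 9, 1 was called lower in each of the 6 homozygous, null or -/C313Y comparisons examined, and it was always Lman1l, which lies outside the interval on the Cyp1a2 side, while 1 to 6 were called higher. Lman1l fell from a mean of 8.14 CPM to 0 in Y86C/Y86C. No tested gene between Cyp1a1 and Cyp11a1 was called lower in those comparisons.

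On chromosome 17, Cyp4f39, Cyp4f17, Cyp4f16, Cyp4f15, Cyp4f14 and Cyp4f13 form a cluster of 494.7 kb in which 3 were called lower and 1 higher. Cyp4f14 and Cyp4f13 lie 7.3 kb apart. In Y86C/Y86C the former changed by -8.32 ± 0.70, with 0 counts left, and the latter by 0.05 ± 0.18, and Cyp4f16 was called higher (0.60 ± 0.14, adjusted p = 0.000953). Of the 5 or 6 tested genes there that are not P450 genes, 0 or 1 was called lower, Rasal3 where it was 1. The chromosome 7 cluster of 12 members, which includes Cyp2a5, Cyp2g1, Cyp2f2 and Cyp2s1, had 6 called lower, 2 called higher with Cyp2a5 among both, and 5 never tested. In the chromosome 15 cluster of 7 CYP2D genes 4 were called lower at least once. The share of all genes called at least once was not counted, so these cluster totals are not set against it. Cyp26a1 lies 4.4 kb from Cyp26c1, which was never tested.

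**Figure D5:**
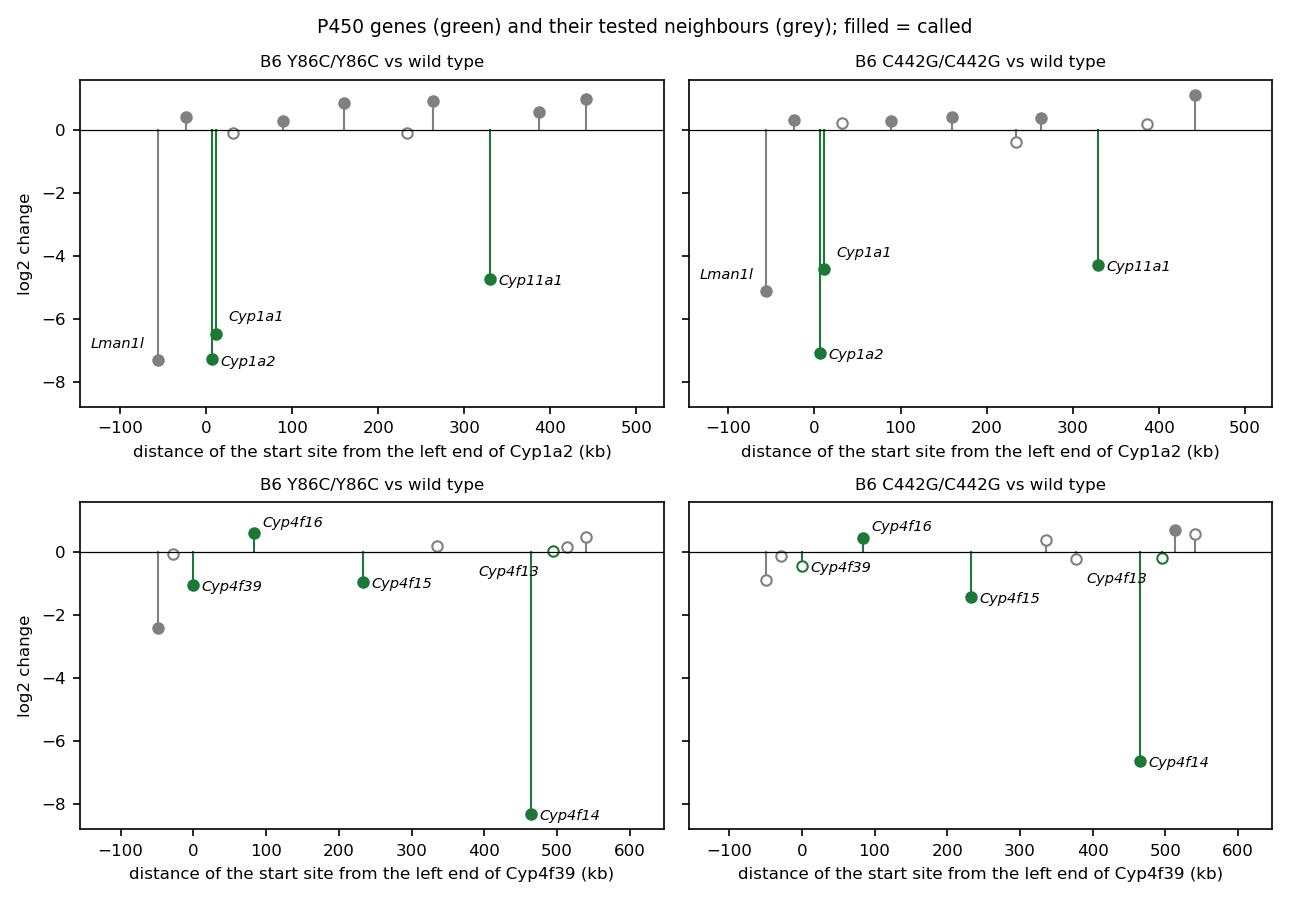
Log2 change of P450 genes (green) and of other tested genes (grey) against the distance of their start site from the left end of Cyp1a2 (upper panels) or Cyp4f39 (lower panels) in kb, in Y86C/Y86C and C442G/C442G; filled points were called. The 3 P450 genes of the upper panels and Lman1l lie below -4 and the other genes there lie near or above 0, while in the lower panels Cyp4f14 lies far below its neighbour Cyp4f13.

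The partners of P450 enzymes were examined as lists. Of the electron-transfer partners, among them the reductase Por, the ferredoxin Fdx1 and its reductase Fdxr, 7 were tested in each comparison. At most 3 were called in any. In C313X/C313X, NOD Aire-/-, +/C313Y and -/C313Y 0 were called, where 15.2%, 9.11%, 11% and 12.9% of all tested genes were called lower. The shares called higher there were 7.85%, 4.21%, 6.36% and 9.83%. Por had 71.8 to 47.1 CPM from wild type to Y86C/Y86C (-0.35 ± 0.12, adjusted p = 0.0171) and 77 to 95.5 CPM from wild type to B6 Aire-/- (0.41 ± 0.13, adjusted p = 0.0173), opposite in sign. Of the steroidogenesis partners, those called were 3 lower and 1 higher of 7 in B6 Aire-/-, 5 and 0 of 7 in Y86C/Y86C, 5 and 0 of 9 in C313X/C313X, 5 and 0 of 8 in C442G/C442G, 3 and 0 of 8 in NOD Aire-/- and 4 and 0 of 8 in each C313Y group. The shares of all tested genes called lower in these groups were 18.9%, 27.9%, 15.2%, 23.1%, 9.11%, 11% in +/C313Y and 12.9% in -/C313Y. The leading genes were Hsd17b3, the testis enzyme that makes testosterone (13.5 to 0.357 CPM in B6 Aire-/-, -5.24 ± 0.55, adjusted p = 9.36e-09), and Hsd3b6 (7.21 to 0.257 CPM, -4.31 ± 0.63, adjusted p = 2.43e-06). Star, which brings cholesterol to Cyp11a1, was called lower in Y86C/Y86C (18.1 to 3.54 CPM, -2.08 ± 0.26, adjusted p = 7.56e-08) and +/C313Y only.

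Conjugating enzymes, the glutathione transferases, sulfotransferases, glucuronosyltransferases and flavin monooxygenases that act beside P450 enzymes, were called lower in 15 and higher in 3 of 24 in B6 Aire-/-, 25 and 1 of 27 in Y86C/Y86C, 11 and 1 of 21 in C313X/C313X, 20 and 2 of 28 in C442G/C442G and 14 and 2 of 28 in +/C442G. In NOD they were 10 and 0 of 24 in Aire-/-, 11 and 2 of 24 in +/C313Y and 11 and 1 of 24 in -/C313Y. These stand beside the same shares of all tested genes, with 13.4% called lower in +/C442G. Sult1c2 was the 1 called higher in Y86C/Y86C, with 72.7 to 189 CPM from wild type to Y86C/Y86C (1.61 ± 0.12, adjusted p = 2.68e-12). The list of receptors and factors that drive P450 genes held calls in both directions. In B6 Aire-/- 2 were lower and 2 higher of 9, and in Y86C/Y86C 3 and 4 of 10. The counts were 0 and 1 of 12 in C313X/C313X and 2 and 2 of 12 in C442G/C442G. In NOD they were 2 and 0 of 9 in Aire-/-, 2 and 1 of 9 in +/C313Y and 2 and 3 of 9 in -/C313Y. The shares of all tested genes called lower are those given above. The shares called higher were, in the same order, 17.7%, 21.7%, 7.85%, 19.5%, 4.21%, 6.36% and 9.83%. The summed level of this list overlapped between wild type and B6 Aire-/-. It was higher without overlap in Y86C/Y86C and in C442G/C442G, at 652 to 761 against 519.8 to 647 CPM in the latter. Within it, Hnf4a fell in B6 Aire-/- (4.7 to 1.15 CPM, -1.84 ± 0.55, adjusted p = 0.0091) and NOD Aire-/- (5.63 to 0.987 CPM, -2.36 ± 0.74, adjusted p = 0.0315), as did Nr0b2, the small heterodimer partner (-4.00 ± 0.60, adjusted p = 4.38e-06 and -4.19 ± 1.19, adjusted p = 0.0163). Vdr, the vitamin D receptor, rose in B6 Aire-/- (0.42 ± 0.10, adjusted p = 0.00199), and Ahr was called in 0 of the 7 comparisons that tested it. Of the hepatocyte markers, 5 of 6 were called lower in B6 Aire-/-, where they summed to 89 to 106 CPM against 299 to 415 in wild type. In NOD Aire-/- 6 of 6 were, at 19 to 34.5 against 142 to 181 CPM. The shares of all tested genes called lower there were 18.9% and 9.11%. Among liver P450 genes, Cyp1a2 was called lower in both groups and Cyp2a5, the most abundant, in neither. Alb was at 14.2 to 0.758 CPM from wild type to B6 Aire-/- (-4.23 ± 0.63, adjusted p = 1.58e-05). In +/C442G 3 of 6 hepatocyte markers were called lower and 1 higher, where 13.4% and 13.1% of all tested genes were. Of the markers of immature medullary cells, 5 of 5 were called lower in B6 Aire-/- and 4 of 5 in Y86C/Y86C and in C442G/C442G. In C313X/C313X 1 of 5 was, in +/C442G 5 of 5 and in each NOD comparison 0 of 5. Of all tested genes, 18.9%, 27.9%, 23.1%, 15.2% and 13.4% were called lower in these B6 groups, in that order. The part of these markers in the P450 results was not tested.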

How the data were processed

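Bulk MARS-seq libraries of sorted mTEChi were analysed, 73 in 21 groups, with 1 further library left unassigned. The authors deposited 6 tables of raw counts per gene on mm10, and the submitters' processing notes name bcl2fastq, cutadapt, STAR 2.4.2a, HTSeq and DESeq2, with no parameters. Each deposited table lists only genes whose highest count is at least 6. The strand setting of the counting is not given in the sources used here. A further 148 per-sample columns of these tables were not used. Counts were divided by the table's library total for CPM. Changes came from edgeR 4.0.16 (R 4.3.3, limma 3.58.1): quasi-likelihood test, TMM factors, genes kept by filterByExpr, all groups of a table in 1 fit, Benjamini-Hochberg adjustment over all tested genes. Effects of B6 lines were compared in 1 fit over 14815 shared genes. The procedure was tested on simulated data. DESeq2 1.42.0, RLE factors, no filter, fits of only the compared groups, other wild-type sets and leaving out each library were alternatives.

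The members and all gene lists were chosen with earlier results of these data known. Named were Cyp1a2, Cyp11a1, Cyp17a1, Cyp21a1, the most abundant member of each class, the most changed called members of each comparison with at least 5 CPM, members called higher in homozygotes, and members called in 5 or more comparisons. Other called members were named after their values were seen. Counting intervals are exact 95% intervals on pooled counts, a count of 0 was bounded at 3 counts over the group, and both cover counting error only. Of 100 pairs of same-group libraries 0 were identical, and the lowest chi-square per degree of freedom was 2.00. Promoters and transcript ends came from RefSeq and GENCODE on GRCm38. Members whose last 500 bases match another gene at 95% or more over at least 200 bases, 8 of 68, are uncertain.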

Additional observations from a re-analysis of the deposited data

Results flagged for a closer look

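In groups of 4 to 6 libraries with a mean of at least 5 CPM, 9 of 65 tests found the highest or lowest library far from the rest, where chance alone gives about 1 in 20. Cyp2f2 was at 24.6 CPM in the B6 Aire+/- library Aire_het_433, with the others at 56.6 to 63.3. Cyp4f14 reached 10.03 CPM in Aire_het_439, with the others at 4.10 to 5.36. In +/C442G, Cyp1a2 reached 16.3 CPM in replicate 91 (others 7.64 to 9.93), Cyp26a1 was at 46.1 CPM in replicate 85 (others 85.7 to 95.9), and Cyp7b1 reached 26.1 CPM in replicate 81 (others 15.2 to 17.9). C442G/C442G replicate 84 was high for Cyp27a1 at 73.6 CPM (others 46.7 to 53.4) and for Cyp2g1 at 62.2 CPM (others 29.7 to 41.3). Among the 5 wild types beside NOD +/C313Y, Cyp2f2 reached 137 CPM in replicate 78 (others 37.7 to 61) and Cyp4f18 reached 18.3 CPM in replicate 45 (others 7.16 to 9.39).

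Effects differed between B6 lines by the test of the difference for 9 gene and line pairs. Against the null homozygote, the log2 difference was -2.75 ± 0.77 for Cyp26b1 in Y86C/Y86C. In C313X/C313X it was -5.53 ± 1.33 for Cyp1a2, where 0 counts make the size depend on the prior count, -2.99 ± 0.79 for Cyp26b1 and 1.65 ± 0.38 for Cyp7b1. In C442G/C442G it was -1.08 ± 0.26 for Cyp2a5. Against Aire+/-, +/C442G differed by -2.05 ± 0.57 for Cyp2d12, -2.17 ± 0.62 for Cyp4f14, -2.12 ± 0.63 for Cyp4f15 and -1.64 ± 0.45 for Cyp4f18. Cyp26b1 and Cyp4f15 did not pass the filter on low counts in the null table itself.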

How the results depend on the processing

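Of 140 called member changes, 93 kept their direction and call in every alternative run and 47 lost the call in at least 1, while 0 reversed. DESeq2 moved the number of members called from 12 to 20 in B6 Aire-/-, from 22 to 38 in Y86C/Y86C, from 24 to 37 in C442G/C442G, from 13 to 22 in +/C313Y, from 1 to 0 in +/Y86C and from 0 to 2 for the -/C313Y minus +/C313Y difference. DESeq2 tests more low members, which bears on its higher counts. Without a filter on low counts the numbers were 26 in B6 Aire-/-, 44 in Y86C/Y86C, 38 in C442G/C442G, 23 in +/C313Y and 20 in -/C313Y, with more members tested. With only the compared groups in the fit, V303M/V303M had 0 instead of 1 and +/C313Y 7 instead of 13.

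Leaving out 1 library at a time gave 10 to 13 called members in B6 Aire-/-, 0 to 1 in Aire+/-, 22 to 26 in Y86C/Y86C, 0 to 1 in +/Y86C, 11 to 17 in C313X/C313X (11 without wild type 7), 22 to 25 in C442G/C442G and 13 to 15 in +/C442G. In NOD it gave 6 to 12 in Aire-/- (6 without Aire-/- replicate 404), 10 to 14 in +/C313Y, 11 to 15 in -/C313Y and 0 to 1 in V303M/V303M. For differences from the null it gave 0 to 1 in Y86C/Y86C, 2 to 4 in C313X/C313X, 0 to 1 in C442G/C442G and 0 to 5 in +/C442G, where it was 2 without C442G wild type 88 or Aire_wt_432 and 0 without Aire_wt_434. The -/C313Y libraries and their wild types share replicate numbers. Deviations of same-numbered libraries correlated at 0.064, -0.040 and 0.163, and those of differently numbered ones at -0.146 to 0.087. With 3 libraries per group these values cannot settle whether the libraries were paired. A replicate block gave 12 called members, as did the same fit without it. For the 27 members that were never tested, depth limits what can be said.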

Other observations

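The library titled wild type but labelled Aire -/-, which entered no comparison, held 2012668 counts. Its summed P450 level was 940.0 CPM, and 539 CPM without Cyp2a5. It had 45.5 members with at least 1 count at the table's smallest depth, Cyp11a1 at 27.8 CPM and Cyp1a2 at 37.8 CPM. The 3 labelled wild types of its table held 44.4 to 47.4 members, and the 4 Aire-/- libraries 32.3 to 34.1.

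Among P450 genes that the symbol rule leaves out, Tbxas1, the thromboxane synthase, and Ptgis, the prostacyclin synthase, were called lower in 6 comparisons each. Tbxas1 went from 8.14 to 0.455 CPM between wild type and Y86C/Y86C (-3.85 ± 0.55, adjusted p = 6.37e-07), and Ptgis from 5.25 to 0.321 CPM between wild type and C442G/C442G (-3.58 ± 0.56, adjusted p = 3.06e-06). Cyp51, the lanosterol demethylase that every cell uses for cholesterol synthesis, was called in 0 of 13 comparisons, with log2 changes between -0.91 and 0.35.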
